A study of Homo sapiens with 9 samples.

Results

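The cells described here are the red fluorescent protein (RFP) control cells of a study of potassium channels in breast cancer. They are MDA-MB-231 cells, an established human line from a triple negative breast cancer, transduced with lentivirus carrying RFP and sorted by fluorescence. The study labels 9 samples, and its count table holds 8 of them: 3 libraries of RFP cells, 3 of cells with a substituted Kir2.1 channel joined to EGFP and 2 of cells with Kv1.5 followed by EGFP. Only the 3 RFP libraries were used, with no contrast, so no test was run and no p-value is given. The members were taken from the sample labels, and the table lists 60715 genes. The control cells carry no channel construct, but share with the other groups the parent line, the culture in DMEM with fetal bovine serum, the lentivirus made in HEK293T cells and the sort. The labels describe 3 separate biological replicates, without saying whether they came from separate transductions. RFP has no row of its own in the table, so the RFP label itself could not be checked by counts.

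Triple negative tumours lack the oestrogen receptor, the progesterone receptor and amplified HER2. MDA-MB-231 is known as a mesenchymal model of this class: spindle-shaped, invasive and low in E-cadherin. In epithelial cells ZEB and SNAIL factors can silence genes such as CDH1 by binding E-boxes, short DNA words of the form CACCTG or its reverse complement CAGGTG. Loss of epithelial adhesion together with gain of vimentin, fibronectin and matrix proteases is known as epithelial to mesenchymal transition.

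Levels are CPM, each count divided by the total of its library and scaled so that a library sums to 1000000. Totals were 42753422, 37490540 and 33517273 counts in replicates 1, 2 and 3. A gene counts as expressed here at 1 CPM or more in each of the 3 libraries, and silent below 0.1 CPM in each. A gene with 0 counts in all 113761235 counts could still have a level of up to 0.0264 CPM (3 counts). These limits cover counting error only. Because a long transcript gives more fragments than a short one, an order between 2 genes is given per length, as TPM, where each count is first divided by the gene's length. Such an order is stated only where it held in every library with both the merged exon length and the median length of the coding transcripts in the GENCODE basic set.

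Of 19920 protein-coding genes, 11365 (57.1%) were expressed and 6080 (30.5%) were silent, leaving 2475 in between. The median protein-coding gene had 6.04 CPM. By mean level, 80 coding genes stood at 1000 CPM or more, 2425 at 100 to under 1000, 6650 at 10 to under 100, and 2509 at 1 to under 10 CPM. Another 1772 were weak, with a mean of 0.1 to under 1 CPM, and 4201 (21.1%) had 0 counts in every library. Long noncoding genes were mostly low: 662 of 14840 (4.46%) were expressed and 8 reached a mean of 100 CPM. Those 8 were SNHG29, GAS5, NORAD, SNHG5, SNHG1, FGD5-AS1, TUG1 and SNHG8, 5 of them hosts of small nucleolar RNAs. Over all 60715 listed genes, 12356 (20.4%) were expressed and 41199 (67.9%) were silent.

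The counts were spread over many genes. The 10 genes with the most counts took 3.84% ± 0.146 (SD, n = 3) of each library, the top 100 took 16.1% ± 0.334 and the top 1000 took 48.9% ± 1.11. Mitochondrially encoded genes took 2.25%, 1.95% and 3.01% of counts in replicates 1, 2 and 3, and cytosolic ribosomal protein genes 4.34% ± 0.406. The most counts of all went to GAPDH, the glycolytic dehydrogenase, at 6052, 4866 and 4786 CPM. PKM (pyruvate kinase) followed with 4692, 4993 and 4682 CPM and ACTB (beta actin) with 4407, 3687 and 3444 CPM. The chaperones HSP90AA1 and HSPA8 and the intermediate filament gene VIM came next among nuclear genes. Per length, with merged exons, the highest means among nuclear genes were those of FTL (ferritin light chain, 11080 TPM ± 8532), S100A6 (a calcium-binding protein, 10293 TPM ± 4200) and TMSB10 (thymosin beta 10, which binds actin monomers, 8904 TPM ± 693). That order did not hold in every library: FTL in replicate 3 (4280 TPM) was below GAPDH (5997 TPM). With basic transcript lengths GAPDH had the highest mean, and 5 of the top 10 were shared between the 2 length choices, so no single gene is named here as the highest. Several of these genes have processed copies in the genome. GENCODE 29 names 62 pseudogenes after GAPDH, 25 after FTH1, 20 after ACTG1, 16 after FTL and 13 after PGAM1, and none after VIM or S100A6. The sources used here do not say how reads with several matching places were counted, so levels of the copied genes are uncertain.

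The receptors that define the clinical class were read first. ESR1, the oestrogen receptor gene (chr6:151656691-152129619, GRCh38), had 0, 2 and 2 counts. PGR, the progesterone receptor gene, had 0 counts in all 3 libraries. ERBB2, which encodes HER2, was expressed at 58.7, 62.7 and 50.1 CPM (57.2 ± 6.44, SD, n = 3), with little spread. Triple negative refers to HER2 protein and gene copies, which were not measured here. Of the 46 nuclear receptor genes, 28 were expressed. NR2F2 (an orphan receptor) had 321, 240 and 170 CPM, NR3C1 (the glucocorticoid receptor) 116, 127 and 152 CPM, and PPARG (a fatty acid sensor) 68.8, 103 and 97.1 CPM.

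Luminal lineage genes were partly present. Of 29 listed luminal genes 14 (48.3%) were expressed, beside 57.1% of all coding genes, and 6 were silent. Their median was 2.31 CPM, beside 6.04 for all coding genes. Among the transcription factors XBP1, a factor of the secretory stress response, was at 59.9, 72.9 and 79.1 CPM and TFAP2C at 38.5, 35.9 and 86.0 CPM. GATA3, which specifies luminal cells, was low and even, at 9.05, 9.10 and 8.86 CPM. FOXA1, the pioneer factor of oestrogen receptor binding, had 40, 26 and 28 counts, under 1 CPM in each library. TFAP2B and the secreted luminal gene AGR3 had 0 counts. The simple epithelial keratins were high in all 3 libraries: KRT7 at 634, 517 and 466 CPM, KRT18 at 545, 405 and 295 CPM, and KRT8 at 424, 443 and 237 CPM. KRT7 stood above KRT8 per length in every library by 1.96 to 3.31 times with merged exons, but the order of KRT7 and KRT18 was not the same in every library. KRT19 was at 69.3, 85.7 and 58.4 CPM.

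Basal markers separated into keratins and other genes. Of 7 basal keratins, 1 was expressed: KRT15 at 3.60, 5.41 and 4.83 CPM. KRT5 had 2, 0 and 1 counts, KRT14 had 5, 0 and 0, and KRT6A and KRT6B had 0. Among the other basal genes 9 of 16 (56.25%) were expressed, close to the 57.1% of all coding genes, and 5 exceeded a mean of 100 CPM. EGFR, the growth factor receptor often high in basal tumours, was at 508, 472 and 311 CPM. CAV1 (caveolin) was at 473, 565 and 544 CPM, and LAMB3, a chain of the epithelial laminin 332, at 511, 531 and 400 CPM. SOX10, a neural crest and myoepithelial factor, had 0 counts. In the whole keratin family 10 of 55 genes were expressed and 25 had 0 counts. KRT81, a hair keratin, was among the 3 keratins with the most counts, at 426, 348 and 399 CPM.

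The epithelial adhesion programme was uneven among its members. CDH1, which encodes E-cadherin (chr16:68737225-68835548), had 2, 7 and 6 counts, or 0.0468, 0.187 and 0.179 CPM. GRHL2, a regulator of epithelial junction genes, and MARVELD3, a tight junction gene, had 0 counts. The splicing regulators ESRP1 (14, 37 and 31 counts) and ESRP2 (19, 18 and 14 counts) stayed under 1 CPM. EPCAM, an epithelial surface glycoprotein, was expressed at 12.4, 18.0 and 17.1 CPM. DSP (desmoplakin) had 213, 220 and 171 CPM and DSG2 (desmoglein 2) 167, 210 and 201 CPM, close together in the 3 libraries. Other desmosome genes had fewer counts, DSC2 (desmocollin 2) at 7.18, 11.5 and 12.7 CPM and JUP (plakoglobin) at 11.1, 18.2 and 26.0 CPM. SPINT2, a membrane protease inhibitor, was at 139, 230 and 205 CPM. Over the 32 listed genes 17 (53.1%) were expressed, close to the 57.1% of all coding genes, and 7 were silent. Their median was 1.65 CPM, beside 6.04 for all coding genes. Among 24 claudins, the sealing proteins of tight junctions, 6 were expressed, CLDN12 with the most counts at 60.5, 58.3 and 75.4 CPM, while CLDN3 and CLDN4 were near 1 CPM or below.

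Promoter windows of epithelial genes are shown because E-box letters were searched in them. The windows run from 250 bases before to 50 after the RefSeq start (GRCh38.p14, plus strand for the genes printed), and capitals mark CACCTG or CAGGTG. CRB3, a polarity gene with 8, 12 and 15 counts (chr19:6464021-6464320), held 5 matches, RAB25, an epithelial trafficking gene with 0, 2 and 1 counts (chr1:156060910-156061209), held 2, and DSP (chr6:7541421-7541720) also held 2. The VIM window (chr10:17227991-17228290) held none.
CRB3: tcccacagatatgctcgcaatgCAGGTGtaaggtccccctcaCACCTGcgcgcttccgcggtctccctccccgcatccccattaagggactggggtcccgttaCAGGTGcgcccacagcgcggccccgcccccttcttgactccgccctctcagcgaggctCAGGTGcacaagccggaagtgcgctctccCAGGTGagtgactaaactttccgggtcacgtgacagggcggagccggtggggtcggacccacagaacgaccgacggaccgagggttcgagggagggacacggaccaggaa
RAB25: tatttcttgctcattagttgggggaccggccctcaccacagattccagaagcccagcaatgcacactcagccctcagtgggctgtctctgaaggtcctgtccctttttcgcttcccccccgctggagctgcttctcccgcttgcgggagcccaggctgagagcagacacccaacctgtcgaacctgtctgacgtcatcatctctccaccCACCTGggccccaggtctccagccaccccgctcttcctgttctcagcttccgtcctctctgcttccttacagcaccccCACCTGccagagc
DSP: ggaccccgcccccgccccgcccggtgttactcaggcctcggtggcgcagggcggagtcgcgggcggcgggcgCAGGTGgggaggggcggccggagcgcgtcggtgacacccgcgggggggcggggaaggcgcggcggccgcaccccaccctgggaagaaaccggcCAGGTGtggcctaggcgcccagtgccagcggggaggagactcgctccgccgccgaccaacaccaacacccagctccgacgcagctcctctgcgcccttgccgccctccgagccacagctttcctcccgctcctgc
VIM: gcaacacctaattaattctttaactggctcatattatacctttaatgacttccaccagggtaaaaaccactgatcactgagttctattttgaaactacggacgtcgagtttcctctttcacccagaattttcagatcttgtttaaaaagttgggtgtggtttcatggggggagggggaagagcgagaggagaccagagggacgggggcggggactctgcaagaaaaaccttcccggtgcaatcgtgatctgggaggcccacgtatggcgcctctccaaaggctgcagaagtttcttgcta
CACCTG or CAGGTG was present in 7231 of 35116 windows in the whole table (20.6%), or in at least one window of 24.1% of genes. Of 17 listed epithelial genes with an entry, 14 (82.4%) held a match, and of 25 mesenchymal genes 4 (16.0%) did: ZEB1, S100A4, AXL and LOX. Other listed epithelial genes, CDH1 and EPCAM among them, had no entry and were not searched. The matched epithelial genes were not all low, since 9 of the 14 were expressed and 5 were not. DSP held matches at a mean of 201 CPM and CRB3 at 0.318 CPM. A match is a description of letters; binding was not measured.

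Mesenchymal genes were expressed in larger number. Of 36 listed, 27 (75%) were expressed, beside 57.1% of all coding genes. Of the 36, 14 exceeded a mean of 100 CPM and 7 were silent, with a median of 43.7 CPM. VIM, the vimentin gene (chr10:17228259-17237593), was at 3837, 3810 and 2867 CPM. Per length VIM exceeded KRT7, KRT8 and KRT18 in every library, KRT18 by 4.39 to 6.07 times and KRT8 by 11.5 to 16.1 times with merged exons. The AP-1 subunit gene FOSL1 was at 462, 407 and 345 CPM. ZEB1 was at 70.8, 72.5 and 94.5 CPM, ZEB2 at 23.4, 23.0 and 26.7 CPM and SNAI2 at 48.6, 30.2 and 34.2 CPM, so 3 repressors of epithelial genes were present. Per length ZEB1 was above ZEB2 in every library, whereas ZEB1 and SNAI2 could not be ordered. TWIST1 and TWIST2 had 0 counts.

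Surface and matrix members of the programme were expressed in 20 of 24 cases, and transcription factors in 7 of 12. CD44, the hyaluronan receptor, was at 897, 644 and 784 CPM. AXL, a receptor kinase, was at 809, 836 and 572 CPM and NT5E (CD73, which makes adenosine) at 456, 609 and 929 CPM. FN1 (fibronectin) was at 292, 294 and 539 CPM and SPARC, a matrix glycoprotein, at 264, 220 and 299 CPM. The programme was not complete: CDH2, which encodes N-cadherin, had 29, 22 and 20 counts (0.621 CPM ± 0.0502), CDH11 had 1, 3 and 0 counts, and POSTN (periostin) had 0. The mesenchymal label therefore held for vimentin, ZEB1 and fibronectin and not for N-cadherin or TWIST1. CD24, a mucin-like surface protein, was at 3.51, 2.48 and 4.56 CPM. Per length CD44 exceeded CD24 by 53.2 to 80.4 times with merged exons and by 107 to 161 times with basic transcript lengths.

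Genes of other cell types were mostly not expressed. Of 36 listed, 7 (19.4%) were expressed and 18 (50%) silent, beside 57.1% and 30.5% of all coding genes. Of 9 leukocyte genes, 2 were expressed: LAPTM5, a lysosomal membrane protein usually described in blood cells, at 125, 178 and 270 CPM, and CD34 at 1.29, 1.89 and 3.13 CPM. The defining leukocyte genes were near 0, with PTPRC (CD45) at 7, 6 and 3 counts, CD3E at 0 and SPI1 at 1, 0 and 0. PECAM1, the endothelial adhesion gene, differed widely, at 1.29, 5.01 and 20.8 CPM, while CDH5 had 0, 2 and 1 counts. None of 5 fibroblast genes was expressed, although COL1A1, a fibroblast collagen, was at 189, 187 and 203 CPM. COL1A2, the partner chain of type I collagen, had 6, 2 and 7 counts. None of 4 genes typical of the HEK293 packaging line was expressed, and 3 had 0 counts.

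Receptor tyrosine kinases bind growth factors at the cell surface and signal through RAS and RAF. Of 30 listed, 16 (53.3%) were expressed, close to the 57.1% of all coding genes, and 8 were silent. Per length, AXL (544 TPM ± 113) exceeded EGFR (131 TPM ± 33.1), which exceeded MET, the scatter factor receptor (84.8 TPM ± 10.9), in every library under both lengths. EGFR exceeded ERBB2 by 5.12 to 7.14 times with merged exons, and ERBB2 exceeded ERBB3 by 9.61 to 12.8 times. FGFR2 had 1, 0 and 0 counts, and NTRK3, RET and ALK had 0.

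**Figure D1:**
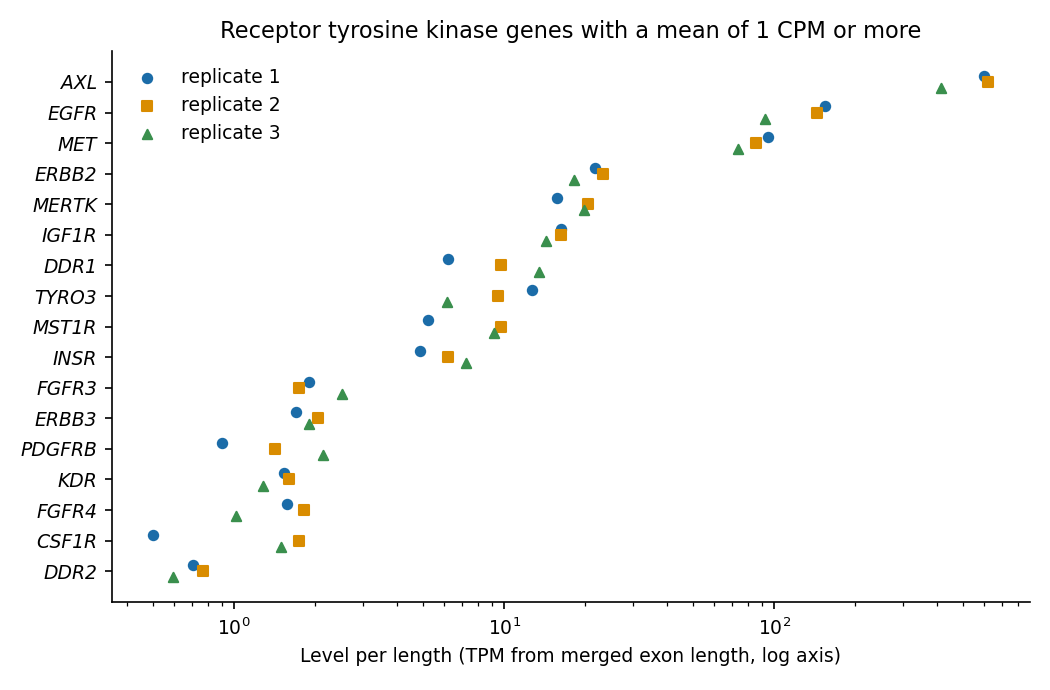
Level per length (TPM from merged exon length, log axis) of the receptor tyrosine kinase genes with a mean of 1 CPM or more, one symbol per RFP library. AXL, EGFR and MET lie above the rest in all 3 libraries.

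Of 30 listed growth factor and related secreted genes, not all of them ligands of these receptors, 24 (80%) were expressed. The share of all coding genes was 57.1%. HBEGF, an EGF receptor ligand, was at 180, 186 and 174 CPM, EREG at 148, 74.2 and 101 CPM and GAS6, the ligand of AXL, at 109, 183 and 196 CPM. CCN1, a matricellular growth regulator, was at 2340, 2424 and 1666 CPM. HGF, the ligand of MET, and IGF1 and IGF2 had 0 counts. All 24 listed genes of RAS and RAF signalling were expressed. NRAS, a RAS switch protein, was at 137, 145 and 177 CPM. Feedback genes of the pathway were all expressed, among them DUSP4, a phosphatase of ERK, at 277, 467 and 648 CPM, DUSP6 at 131, 226 and 239 CPM and PHLDA1 at 463, 558 and 702 CPM.

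Proliferation genes were high, with 28 of 28 expressed, 27 at a mean of 100 CPM or more and a median of 289 CPM. Among all coding genes 57.1% were expressed and the median was 6.04 CPM. MKI67, a marker of cycling cells, was at 1085, 1037 and 895 CPM and TOP2A, the topoisomerase of dividing cells, at 849, 1128 and 1317 CPM. CCND1, which encodes cyclin D1, was at 1105, 943 and 906 CPM and its kinase CDK4 at 548, 500 and 399 CPM. Per length CCND1 exceeded CCND3 by 9.24 to 10.4 times, and CDK4 exceeded CDK6 by 24.6 to 29.2 times, with merged exons. All 8 E2F genes, a family of transcription factors of which some but not all are bound by RB1, were expressed. RB1 itself was at 82.3, 86.7 and 128 CPM, highest in replicate 3, and BRCA1, a DNA repair gene, at 69.0, 91.2 and 104 CPM. Of 27 suppressors and cell cycle regulators, 25 were expressed. The 2 silent members were CDKN2A, which encodes the CDK4 inhibitor p16, with 0 counts, and its neighbour CDKN2B, with 1, 0 and 0 counts.

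CDKN2A lay at the end of a run of protein-coding genes with 0 counts. MDA-MB-231 is known to carry a homozygous deletion that includes CDKN2A; DNA was not measured here. On chromosome 9, 21 consecutive protein-coding genes had 0 counts in all 3 libraries, from HACD4 to CDKN2A (chr9:20999515-21995301, 0.996 Mb, GRCh38 with GENCODE 29 genes). The run holds MTAP, the methylthioadenosine phosphorylase used by most cells, KLHL9, a ubiquitin ligase adaptor, and the type I interferon cluster. The interferon genes carry little information here, since cells without viral stimulation rarely express them. Outside the run, FOCAD on one side had 95, 94 and 75 counts and MLLT3 beyond it 495, 594 and 736 counts. On the other side the run was ended by 1 count in CDKN2B, and DMRTA1 and ELAVL2 beyond it had 0 counts. Within 2 Mb on each side, 23 of 26 coding genes had 0 counts, beside 21.1% of all coding genes, and 7 of the 10 that are not interferon genes did. By the threshold of 0.1 CPM 24 of the 26 were silent, beside 30.5% of all coding genes, so silent genes continued past CDKN2A. Noncoding genes in or beside the run had some counts. CDKN2B-AS1, an antisense RNA, had 13, 15 and 54 counts. It spans 21994778 to 22121097 and so lies mostly beyond the run, and its counts cannot be placed inside it. The processed pseudogene KHSRPP1, within the run, had 20, 12 and 2 counts. How reads with several matching places were counted is not known, so these may belong to another locus.

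Genes of the extracellular matrix and its receptors were expressed in part. Of 33 collagen genes 19 (57.6%) were expressed, close to the 57.1% of all coding genes, and 8 exceeded a mean of 100 CPM. COL6A1 was at 161, 433 and 735 CPM, lowest in replicate 1, whereas COL4A2, of basement membranes, was even at 170, 192 and 181 CPM. COL1A1 was even too, and its partner COL1A2 had 15 counts in all. Of 26 integrin genes 12 (46.2%) were expressed. ITGA3, a laminin receptor chain, was at 1055, 1418 and 1115 CPM and ITGB1, its partner, at 651, 721 and 1001 CPM. Of 15 laminin and linker genes 12 were expressed, and LAMB3 exceeded LAMB1 per length by 3.58 to 4.79 times with merged exons.

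Matrix proteases included membrane-bound and secreted members. MMP14, which sits in the cell membrane and cleaves collagen, was at 461, 655 and 612 CPM. MMP2, a secreted gelatinase that MMP14 activates, was at 6.50, 8.03 and 18.0 CPM, and per length MMP14 was 37.7 to 90.1 times higher with merged exons. Of 18 listed metalloproteinases 9 were expressed, and MMP9 had 5, 4 and 2 counts. PLAU, which encodes urokinase, was at 372, 759 and 676 CPM, its receptor gene PLAUR at 138, 114 and 110 CPM and plasminogen itself (PLG) at 0 counts. TIMP2, a metalloproteinase inhibitor, was at 478, 468 and 501 CPM.

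Glycolysis genes were high, with 22 of 26 (84.6%) expressed and a median of 114 CPM. For all coding genes these were 57.1% and 6.04 CPM. LDHA, which reduces pyruvate to lactate, was at 1427, 1725 and 2660 CPM, and exceeded LDHB per length by 6.89 to 13.6 times with merged exons. The lactate exporter SLC16A3 was at 307, 441 and 433 CPM, and the transporter SLC16A1 at 3.79, 4.37 and 3.91 CPM. ALDOA had 14.2, 12.3 and 11.3 CPM, but 42.3% of its merged exon length is shared with another gene on the same strand, so its count may be partial. Antigen presentation genes of class I were expressed in 12 of 13 cases, with B2M, the light chain they share, at 611, 934 and 1304 CPM. Class II genes were expressed in 4 of 10 cases. CD74, the invariant chain, was at 54.0, 110 and 149 CPM and HLA-DRA at 3.88, 15.2 and 20.7 CPM. CD274, which encodes PD-L1, was at 35.4, 27.2 and 29.3 CPM.

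Potassium channels, the gene class that the study expressed in sister cells, were mostly silent in the control cells. They let potassium leave the cell and so set its resting voltage. Of 77 listed channel genes 9 (11.7%) were expressed and 49 (63.6%) silent, beside 57.1% and 30.5% of all coding genes. Of the 77, 29 had 0 counts, beside 21.1% of all coding genes. KCNJ2, which encodes Kir2.1 (chr17:70168673-70180048), had 1, 0 and 3 counts. KCNA5, which encodes Kv1.5, had 0 counts. KCNQ5, a slow voltage-gated channel, was at 36.3, 33.1 and 26.4 CPM and KCNN4, a calcium-activated channel, at 24.3, 31.3 and 34.1 CPM. Per length KCNN4 exceeded KCNQ5 in every library, by 1.48 to 2.87 times with merged exons. The other 7 were KCNK6, KCNK1, KCNS3, KCNQ3, KCNC4, KCNJ8 and KCND1, with means from 1.41 to 10.1 CPM. None of 10 calcium channel alpha genes was expressed.

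Large families with a tissue-restricted role were close to silent. None of 381 olfactory receptor genes was expressed and 352 had 0 counts. All 45 defensin genes and all 17 genes of the interferon alpha, beta and epsilon group had 0 counts. None of 17 glucuronosyltransferase genes or 11 HOXA genes was expressed, and 1 of 94 keratin-associated protein genes was, KRTAP2-3 at 65.1, 16.1 and 7.28 CPM. The HOX clusters, which encode positional identity, differed: 4 of 10 HOXB genes were expressed, HOXB9 with the most counts at 22.4, 18.7 and 14.6 CPM, 3 of 9 HOXD genes and 1 of 9 HOXC genes. The expressed HOXD4 and HOXD3 share 80.5% and 62.2% of merged exon length with other genes on the same strand, so their counts may be partial. Of 22 cancer-testis antigen genes, normally limited to germ cells, 1 was expressed. That was MAGEB2, at 75.4, 91.2 and 76.3 CPM. Regulatory families were broader, with 412 of 509 ZNF genes, all 7 STAT genes and 13 of 18 KLF genes expressed. STAT3, the factor downstream of IL6, was at 205, 202 and 209 CPM, KLF6 at 179, 217 and 166 CPM and SOX9 at 52.2, 73.5 and 58.8 CPM.

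The 3 libraries were not equally alike. Across the 12356 expressed genes, log2 CPM correlated with r = 0.987 between replicates 1 and 2, 0.982 between 2 and 3 and 0.964 between 1 and 3. They were computed over genes, and genes are no independent replicates. The median coefficient of variation of 9336 genes at 10 CPM or more was 14.1%, and 545 of them (5.84%) had a highest library over 2 times the lowest. Without replicate 1 that share was 1.18%, and without replicate 3 it was 1.22%, but without replicate 2 it was 5.55%, so most of it rests on the distance between those libraries.

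The 10 genes at 50 CPM or more with the widest spread were C3, CSF3, PTGES, CXCL1, IL1B, IL6, SLC7A11, CSF2, CXCL8 and NQO1. They are inflammatory genes, apart from SLC7A11 and NQO1. C3, a complement protein, was at 7.93, 17.9 and 280 CPM and CSF3, a granulocyte growth factor, at 41.2, 190 and 789 CPM. IL6 was at 21.5, 50.0 and 177 CPM, and the neutrophil chemokine CXCL8 at 86.3, 191 and 510 CPM. Replicate 3 was highest and replicate 1 lowest for each of these 4. SLC7A11, which imports cystine for glutathione, ran the other way at 379, 117 and 76.3 CPM, as did NQO1, a quinone reductase, at 1162, 355 and 260 CPM. FTL, ferritin light chain, was at 4756, 1909 and 1006 CPM.

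Of 16 cytokine, chemokine and receptor genes with a mean of 1 CPM or more, replicate 3 was the highest library for 14. Of 16 glutathione, cystine and iron genes, replicate 1 was the highest for 12. Over all 12873 genes at that level the highest library was replicate 1 for 3907 (30.4%), replicate 2 for 3102 (24.1%) and replicate 3 for 5864 (45.6%). With upper quartile scaling these shares were 41.6%, 19.0% and 39.4%, beside 13 of 16 for replicate 1 in the glutathione list and 14 of 16 for replicate 3 in the cytokine list. Both lists hold genes named above for their differences between libraries, and were chosen with earlier results known. The list counts therefore describe these libraries and are no separate support. Of 8 class II genes with a mean of 1 CPM or more, replicate 1 was lowest for 8 and replicate 3 highest for 7. Over the 12873 genes replicate 1 was lowest for 5575, or 4142 with upper quartile scaling. Only 4 of 10 class II genes reached 1 CPM in each library. The rest of the 8 passed the mean only through libraries where they were higher, so this count is no support. The summed level of 6 leukocyte markers rose in the same order, at 126, 178 and 271 CPM, nearly all of it LAPTM5. That of 4 endothelial markers was 4.26, 8.08 and 23.3 CPM, while PTPRC, CD3E and CDH5 stayed at or near 0. In bulk RNA, a larger share of cells that express a gene and more RNA per cell cannot be told apart. Replicate 3 also had the fewest counts and the highest mitochondrial share, 3.01%, and the part of depth, of mitochondrial share and of the marker genes in these differences was not tested.

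Promoter windows of cytokine genes are shown because several of them varied together. The windows were searched on both strands for the consensus motif of NF-kB, a transcription factor of inflammatory genes. This motif was chosen after the values were seen. Capitals mark the matched letters. CXCL1 (chr4:73869143-73869442) held 2 overlapping matches, 1 on each strand, and IL6 (chr7:22726950-22727249) held 1. The CXCL8 window (chr4:73740319-73740618) held no match, which says nothing of the factor.
CXCL1: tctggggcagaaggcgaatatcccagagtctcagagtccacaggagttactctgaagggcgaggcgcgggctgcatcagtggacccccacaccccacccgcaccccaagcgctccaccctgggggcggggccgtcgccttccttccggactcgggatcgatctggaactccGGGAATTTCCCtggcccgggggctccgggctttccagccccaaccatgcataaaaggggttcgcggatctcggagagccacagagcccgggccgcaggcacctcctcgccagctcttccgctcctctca
IL6: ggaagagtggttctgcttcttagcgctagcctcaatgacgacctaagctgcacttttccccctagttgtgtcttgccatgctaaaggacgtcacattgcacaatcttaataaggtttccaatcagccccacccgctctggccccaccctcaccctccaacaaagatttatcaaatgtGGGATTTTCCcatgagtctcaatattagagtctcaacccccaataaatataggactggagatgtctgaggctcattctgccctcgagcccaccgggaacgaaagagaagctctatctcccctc
CXCL8: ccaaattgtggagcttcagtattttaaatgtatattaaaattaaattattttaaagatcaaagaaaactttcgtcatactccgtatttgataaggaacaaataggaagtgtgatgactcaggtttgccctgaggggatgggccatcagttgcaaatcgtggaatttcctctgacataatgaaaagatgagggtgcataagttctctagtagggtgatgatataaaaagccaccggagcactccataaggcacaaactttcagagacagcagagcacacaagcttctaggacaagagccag
The motif was present in 11.3% of all windows and in 13.3% of genes, and in 12 of 25 listed cytokine genes with an entry (48.0%). Of those 12, 7 were expressed and 5 were not, CXCL6 among them with 0 counts. CXCL1, CXCL2 and CXCL3 held the same matched letters at nearly the same place, so they are not separate cases. IL1B, among the most variable genes, held no match. Another form of the motif, tried first, was present in 6.85% of genes and in 12 of the 25.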

How the data were processed

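The authors deposited a table of raw counts, whole numbers, with 1 row per Ensembl gene. Libraries were made from total RNA with a stranded mRNA kit, per the labels' protocols, and FastQC, Trimmomatic, STAR, edgeR and GRCh38 are named, without versions, in the submitters' processing notes. The sources used here name no counter, strand setting or annotation release, so a gene's reads cannot be separated from those of an antisense partner. The authors' comparison tables were not used.

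CPM used column totals. TMM factors came from edgeR 4.0.16 in R 4.3.3, and other steps from Python 3.11.15. Types, positions and lengths came from GENCODE 29 for 58497 of 60715 genes, and promoter windows from RefSeq. Classes were checked on simulated counts that held counting error only, so the check does not cover variation between libraries. Means are ± SD over 3 libraries.

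Members and lists were chosen with earlier results of these data known. Named genes were the 20 with the highest mean CPM and 10 highest per kb, list members, the 3 highest of a symbol family and the 10 most variable at 50 CPM or more; not all are printed, and some genes are not reported here. Pairs compared per length, the second length and the NF-kB motif were chosen after the values were seen. Alternatives were TMM, upper quartile and mitochondria-free scaling, thresholds of 0.5 and 2 CPM, coding genes only, and each library left out.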

Additional observations from a re-analysis of the deposited data

How the results depend on the processing

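Counts of expressed genes (12356) became 13387 at a threshold of 0.5 CPM and 11406 at 2 CPM, and ran from 12410 to 12609 with 1 library left out. Among protein-coding genes alone, silent genes fell from 41199 to 6080 and genes with 0 counts from 32264 to 4201, because fewer genes were considered. Without mitochondrially encoded genes the top 10 genes took 3.66% of counts and the top 100 took 15.1%. Leaving out each library in turn gave a median coefficient of variation from 8.15% (without replicate 3) to 15.7%, and a share of genes with a highest library over 2 times the lowest from 1.18% (without replicate 1) to 5.55%; without replicate 3 it was 1.22%. Levels of 43 named genes moved by less than 1 SD with TMM factors. Leaving out a library moved the mean of 17 of the 43 by over 1.5 times, 10 without replicate 3 and 7 without replicate 1. Without replicate 3, C3 went from 102 to 12.9 CPM, CSF3 from 340 to 116 CPM and IL6 from 82.7 to 35.7 CPM, and without replicate 1, FTL went from 2557 to 1457 CPM. List counts in 200 of 200 cases stayed within 1.5 times. The highest library for the glutathione list was replicate 1 for 13 of 16 genes with upper quartile scaling in place of 12, and over all 12873 genes replicate 1 was then the highest library for 41.6% and replicate 3 for 39.4%. Of the 10 genes highest in CPM, 4 were also in the top 10 per merged exon length and 5 per basic transcript length. The second length, and the left-out libraries for the spread and for chromosome 9, were added after seeing the data. No paired analysis was possible because the values come from 1 group and no test. Genes with 0 counts are limited by depth to 0.0264 CPM over the 3 libraries.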
